A study of Caenorhabditis elegans with 4 samples.

Results

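The small subunit of the cytosolic ribosome reads messenger RNA, and its protein genes in Caenorhabditis elegans are named rps followed by a number. The 31 protein-coding genes rps-0 to rps-30 of the WBcel235 annotation were taken by name from 19985 protein-coding genes. No measured value decided which genes were members, but the family was chosen with earlier results of these data known. All 31 names were found. The binding data are ChIP-seq peak lists for EGL-27 in whole larvae of the third larval stage, with 4 biological replicates in 1 group and no second condition. All samples came from strain OP177, genotype unc-119(ed3) III; wgIs177, in which EGL-27 carries a GFP-FLAG tag at its C terminus. Males and females were pooled, the exact age is labelled unknown, and the labels do not name the DNA that drives the transgene. The material is whole organisms, so the cells in which a site was occupied cannot be told apart.

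A ribosome joins a small and a large subunit, each built on ribosomal RNA. The small subunit has a head, a body and a platform, between which the message passes and is decoded. Each rps gene encodes 1 protein of this particle. These genes are active in all growing cells, and larval growth requires many new ribosomes. EGL-27 belongs to the MTA family of chromatin proteins, which act in nucleosome remodelling and histone deacetylation, and it carries a zinc finger of the GATA type. In C. elegans many messages are trans-spliced: a leader RNA replaces the first stretch of the transcript. For such genes the annotated 5′ end is a splice acceptor, and transcription starts further upstream. The 2 bases AG stood directly before the annotated 5′ end of 28 of the 31 rps genes (90.3%), against 27.6% of 19973 nuclear protein-coding genes. The exceptions were rps-22, rps-24 and rps-27. Among the 47 rpl genes, which encode large subunit proteins, AG preceded the 5′ end of 38 (80.9%). Distances below are measured from this annotated 5′ end.

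A gene's promoter window ran from 1000 bp upstream of the 5′ end to 200 bp downstream, and a peak counted when its summit lay inside. The authors' reproducible list, filtered by irreproducible discovery rate (IDR), held 814 peaks. These were the 814 highest-scoring peaks of the 28056 in the pooled list, so a rank of 1 to 814 is the same in both. Ranks here order the authors' peak score within a list, and rank 1 is strongest. The pooled and replicate lists also hold background, so a low-ranking peak there is a position and not a called site. Replicates 1 to 4 had 30000, 6602, 19304 and 12990 peaks, and they were compared at their 814 strongest, called top peaks here. The replicate 2 list was the shortest, read depth is unknown, and all replicates shared a control.

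An IDR summit lay in the window of 14 of the 31 rps genes (45.2%), where 2.60% of all protein-coding genes had one. A pooled summit lay in 30 windows, against a background of 37.5%. The exception was rps-6, whose protein is the target of S6 kinase in mammals. Its only summit in any list was in replicate 4, at rank 9619. The members with an IDR summit had pooled ranks of 52 to 655, with a median of 216, and the 16 others with a pooled summit ranked 1101 to 22978. The weakest member on the IDR side was rps-23 at rank 655, and the strongest outside it was rps-3 at rank 1101.

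All 14 IDR summits of rps genes lay in intergenic DNA. The reference sequence (RefSeq, WBcel235, the assembly of ce11) is printed for 5 of them, on the strand of the rps gene, 121 bases centred on the summit. They are shown because they include the strongest rps peak and contrast members with and without a shared word. Capitals mark CAGCCAA or its reverse complement TTGGCTG.
rps-12, chrIII:5679096-5679216, plus strand: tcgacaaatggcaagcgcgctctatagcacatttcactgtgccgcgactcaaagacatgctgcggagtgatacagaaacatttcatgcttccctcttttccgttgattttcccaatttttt
rps-28, chrIV:1659179-1659299, plus strand: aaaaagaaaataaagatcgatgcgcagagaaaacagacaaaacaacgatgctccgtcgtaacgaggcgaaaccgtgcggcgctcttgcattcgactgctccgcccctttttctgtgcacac
rps-14, chrIII:7179811-7179931, minus strand: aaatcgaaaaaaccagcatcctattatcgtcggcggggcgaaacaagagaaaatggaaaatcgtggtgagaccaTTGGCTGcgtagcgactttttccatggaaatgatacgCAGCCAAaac
rps-21, chrIII:7189887-7190007, minus strand: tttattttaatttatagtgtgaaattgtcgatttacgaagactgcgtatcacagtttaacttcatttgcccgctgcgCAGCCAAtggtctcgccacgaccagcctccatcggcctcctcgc
rps-22, chrIII:1950367-1950487, plus strand: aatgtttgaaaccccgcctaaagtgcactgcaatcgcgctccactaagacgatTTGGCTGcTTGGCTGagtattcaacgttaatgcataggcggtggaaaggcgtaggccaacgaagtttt

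**Figure D1:**
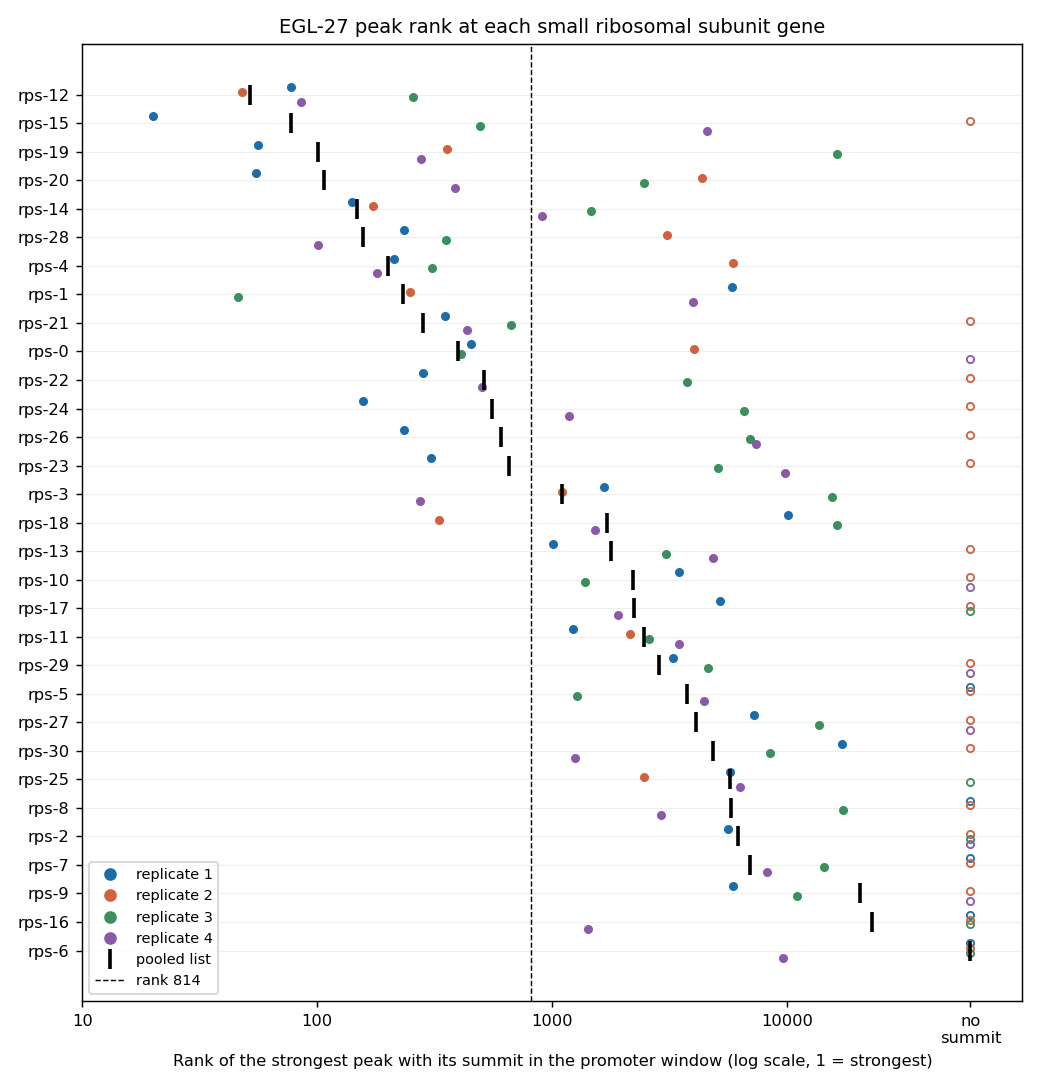
Rank of the strongest peak in the promoter window of each of the 31 rps genes, on a log scale where rank 1 is strongest. Filled points are the 4 replicates, black ticks the pooled list, open points at the right edge mean no summit, and the dashed line is rank 814. Only rps-12 has all 4 replicates left of the line, and rps-6 has no pooled summit.

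Among proteins of the head of the subunit, 5 of 13 genes had an IDR summit: rps-12, rps-15, rps-19, rps-20 and rps-28. The strongest was at rps-12 (WBGene00004481; chromosome III, 5679298 to 5680187), whose protein sits at the beak of the head. Its peak ranked 52 in the IDR list and 77, 48, 256 and 85 in replicates 1 to 4. It was the 1 rps gene with a top peak in every replicate, which 0.195% of all protein-coding genes had. The summit lay 142 bp upstream of rps-12 and 151 bp from the 5′ end of ska-3 on the other strand, so the peak cannot be given to rps-12 alone.

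The protein of rps-15 (WBGene00004484; chromosome I, 8815572 to 8816193) lies in the head near the decoding site. Its peak ranked 77 in the IDR list and 20, 493 and 4536 in replicates 1, 3 and 4, and replicate 2 had no summit in the window. The rank of 20 in replicate 1 was the best of any rps gene in any replicate. In humans, mutations in the counterpart of rps-19 cause Diamond-Blackfan anaemia. The rps-19 peak (WBGene00004488; chromosome I, 9625049 to 9625796) stood between those of rps-15 and rps-20 in the IDR list and ranked 56, 356, 16325 and 276 in replicates 1 to 4. Replicate 3 thus had it far below the other 3 lists. Its summit was 283 bp upstream of rps-19 but only 162 bp from the 5′ end of hsr-9.

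The peak at rps-20 (WBGene00004489; chromosome I, 14468332 to 14469103) had an IDR rank of 107 and ranks of 55, 4315, 2445 and 385 in replicates 1 to 4. It was a top peak in replicates 1 and 4 only. Its summit lay 259 bp upstream of rps-20 and 138 bp from the 5′ end of ekl-4. The rps-28 protein binds near the exit of the mRNA channel. Its peak (WBGene00004497; chromosome IV, 1659691 to 1659997) had an IDR rank of 157 and ranks of 233, 3074 and 353 in replicates 1 to 3, and it ranked higher in replicate 4 than in any of these. At 452 bp from the 5′ end, this summit was the farthest upstream of the 14.

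Among proteins of the body and platform, 9 of 18 genes had an IDR summit. The rps-14 protein is part of the platform, and in humans loss of 1 copy of its counterpart contributes to the 5q- syndrome. Its peak (WBGene00004483; chromosome III, 7178991 to 7179588) ranked 147 in the IDR list and 140, 172, 1466 and 906 in replicates 1 to 4. It stood between rps-14 and rpl-36, a gene of the large subunit, at 283 bp from the 5′ end of the first and 380 bp from that of the second. The peak at rps-4 (WBGene00004473; chromosome IV, 7083696 to 7084682), which encodes an RNA-binding protein of the body, had no second coding gene within its window. It ranked 200 in the IDR list and 213, 5896, 308 and 179 in replicates 1 to 4. The replicate 2 summit, 715 bp upstream, was away from those of the other replicates, which lay 259 to 263 bp upstream.

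The rps-1 protein (human RPS3A) lies beside the mRNA exit. Its peak (WBGene00004470; chromosome III, 4475918 to 4476876) ranked 232 in the IDR list and 5794, 248, 46 and 3960 in replicates 1 to 4. This gene was high in replicates 2 and 3 and low in replicates 1 and 4. At rps-21 (WBGene00004490; chromosome III, 7189178 to 7189631) the IDR rank was 282, and replicates 1, 3 and 4 gave 349, 670 and 435, with no summit in replicate 2. The summit was 316 bp upstream with no other coding 5′ end near. The rps-0 protein is related to the human laminin receptor RPSA. Its peak ranked 396 in the IDR list and 453, 4000 and 410 in replicates 1 to 3, with none in replicate 4, and its summit lay 58 bp from the 5′ end of rbg-3 and 315 bp from that of rps-0.

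The last 4 members with an IDR summit ranked lower. At rps-22, which encodes a body protein, the IDR rank was 513, and replicates 1, 3 and 4 gave 281, 3740 and 500. At rps-24, whose human counterpart is another Diamond-Blackfan gene, the IDR rank was 553, and the same replicates gave 156, 6543 and 1176. The protein of rps-26 binds the message at the exit channel. At rps-26 the IDR rank was 602 and the replicate ranks were 235, 6961 and 7344. The rps-23 protein is at the decoding centre. At rps-23 the IDR rank was 655 and the replicate ranks were 304, 5056 and 9751. In replicate 4 the summits of rps-26 and rps-23 were other ones, 58 bp downstream and 662 bp upstream of the 5′ end, and none lay within 200 bp of the IDR summit. None of these 4 had a summit in the window in replicate 2, and in replicate 1 all 4 were top peaks. The rps-26 summit, 384 bp upstream, lay 73 bp from the 5′ end of tmem-107 and within 200 bp of the snoRNA gene F39B2.14, the single snoRNA gene so close to any of the 14 summits.

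Counted over replicates, 13, 5, 7 and 8 rps genes had a top peak in replicates 1 to 4, a mean of 8.25 ± 3.40 (SD, n = 4). As a share of the 31 genes this was 26.6% ± 11.0. The backgrounds over all protein-coding genes were 2.32%, 1.81%, 2.07% and 2.13%. Replicate 1 had the most and replicate 2 the fewest. With full replicate lists, 26, 12, 26 and 25 rps genes had a summit, over backgrounds of 37.9%, 10.4%, 26.8% and 19.6%. Replicate 2 again had the fewest. Beside rps-12, rps-4, rps-19, rps-21 and rps-28 had a top peak in 3 replicates, so that 5 of 31 genes, rps-12 included, had one in 3 or more, against 0.676% of all genes. At 6 genes there was a top peak in 2 replicates, at 5 in 1, and at 15 in none, where 94.5% of all genes had none. Each of the 11 genes with a top peak in 2 or more replicates also had an IDR summit. The IDR list was made from these replicates, so this agreement is partly built in. The IDR list cannot be remade here without a replicate, whereas the count of members with a top peak in every remaining replicate was 4 without replicate 2 and 2 without replicate 3.

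The 17 members without an IDR summit were not all without strong peaks. At rps-3, whose protein lines the mRNA entry, the ranks in replicates 1 to 4 were 1666, 1101, 15557 and 274. At rps-18 of the head they were 10047, 329, 16196 and 1514. These were the 2 genes with a top peak in 1 replicate and no IDR summit. At neither gene did the 4 ranks all belong to 1 summit. Those of rps-18 lay 578, 971, 761 and 568 bp upstream in replicates 1 to 4. Those of rps-3 lay 265, 107 and 339 bp upstream in replicates 1, 2 and 4, and 133 bp downstream in replicate 3. In the rps-18 window the best pooled summit fell in an untranslated region of sec-61.A. For rps-7, rps-9 and rps-16 the best pooled summit fell in a coding exon of a neighbour, with pooled ranks of 6952, 20404 and 22978. The gene rps-16 stands 110 bp downstream of fib-1 on the same strand, the gene of fibrillarin, which methylates ribosomal RNA. An IDR summit of rank 732 lay 84 bp upstream of fib-1. That summit was 1766 bp from the 5′ end of rps-16 and so outside its window. Same-strand genes also lay 357, 479 and 481 bp upstream of rps-2, rps-7 and rps-17, and none of these upstream genes had an IDR summit. Whether any of these rps genes shares a promoter with the gene before it was not tested. Closely spaced genes on 1 strand are often operons in C. elegans, in which the genes share a promoter.

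**Figure D2:**
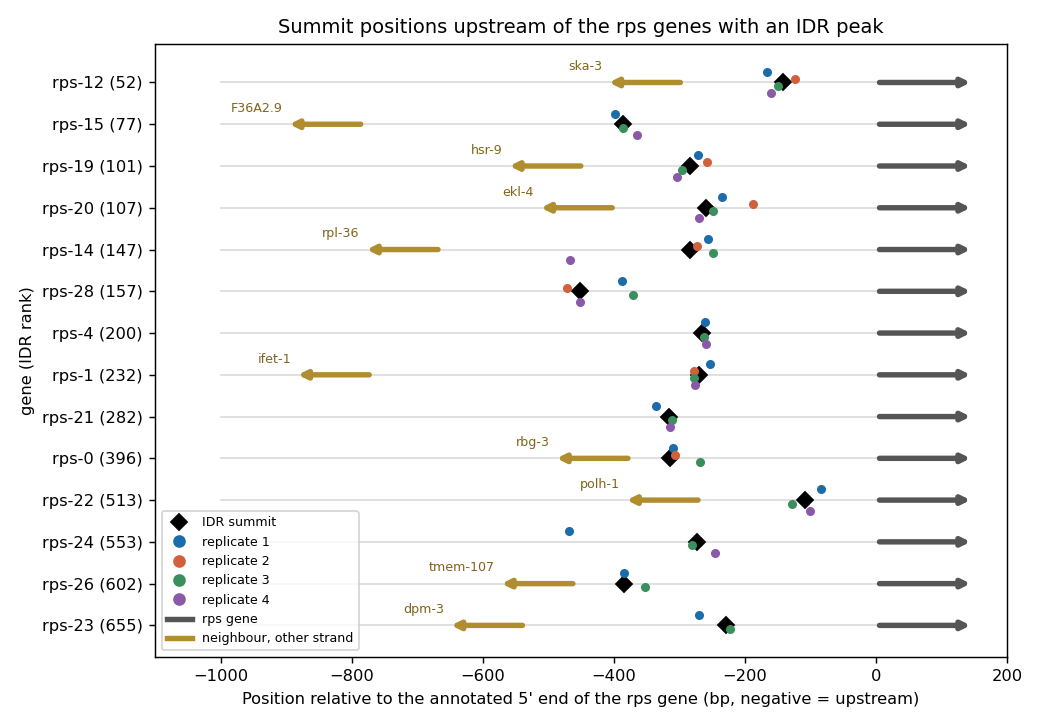
Summit positions at the 14 rps genes with an IDR peak, ordered by IDR rank, in bp from the annotated 5′ end of the rps gene. Diamonds are IDR summits, points the strongest summit of each replicate within 200 bp of it, and arrows the rps gene and any neighbour on the other strand within 1000 bp upstream. Diamonds lie from 108 to 452 bp upstream, and most replicate points lie close to their diamond.

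The summits fell in a narrow band. The 14 IDR summits lay 108 to 452 bp upstream of the 5′ end, with a median of 278 bp, and 11 of them lay from 200 to 400 bp upstream. All 14 thus lay between 100 and 500 bp upstream, bounds chosen after the values were seen. Of the 505 other protein-coding genes with an IDR summit, 60.6% had it between these bounds, with a range from 995 bp upstream to 199 bp downstream and a median of 258 bp. Of the 11 rpl IDR summits, 10 lay between these bounds too (90.9%). For pooled summits the share was 76.7% of 30 rps genes and 89.5% of 38 rpl genes. For the rps genes with a top peak, the median distance in replicates 1 to 4 was 271, 273, 278 and 287 bp, a mean of 277 ± 7.14 (SD, n = 4). AG precedes the 5′ end of most rps and rpl genes but of 27.6% of all genes. The distances are thus not measured from the same kind of 5′ end across all genes.

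Most replicate summits lay close to the IDR summit. Within 200 bp of an rps IDR summit, 46 replicate summits were found at a median of 15 bp from it. For 376 other nuclear IDR peaks in promoter windows the median was 24.5 bp, over 1240 replicate summits. At rps-4, replicates 1, 3 and 4 lay within 4 bp of each other, with an SD of 2.00 bp. At rps-1 the SD over 4 replicates was 12.2 bp and at rps-12 it was 18.6 bp. The widest spreads were at rps-24, with an SD of 120 bp over 3 replicates, and rps-14, with 104 bp over 4. In all 4 replicates a summit lay within 200 bp of 6 of the 14 peaks (42.9%), close to the 42.0% of the other promoter peaks. Peaks were 364 to 404 bp wide in the median of each replicate list, and the pooled list contains all replicates.

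**Figure D3:**
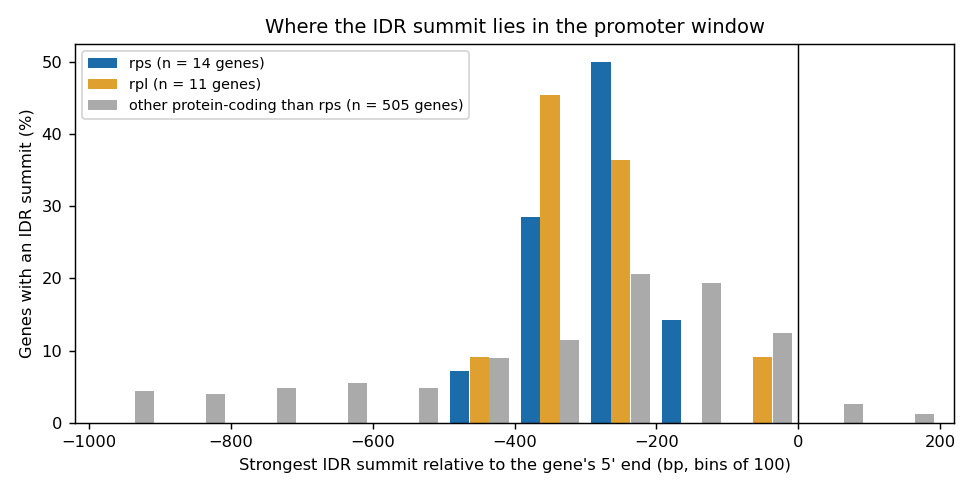
Position of the strongest IDR summit relative to the gene's 5′ end, in bins of 100 bp, as a percentage of the genes with an IDR summit in each list. The grey bars hold the 505 protein-coding genes other than rps, the rpl genes included. The 14 rps genes fill the bins from 100 to 500 bp upstream and no other.

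The DNA upstream of rps genes is often shared with a neighbour. A gene on the other strand began within 1000 bp upstream of 19 of the 31 rps genes, and 10 of these 19 had an IDR summit (52.6%). Of the 12 rps genes without such a neighbour, 4 had one (33.3%). Among the other protein-coding genes the shares were 5.17% of 3520 with such a neighbour and 1.97% of 16434 without, so shares were higher beside a neighbour in both sets. Of the 14 summits, 11 also lay in the window of another protein-coding gene. For 4 of them, at rps-0, rps-19, rps-20 and rps-26, the neighbour's 5′ end was the nearer one. No matching counts are given here for the other IDR promoter summits, so neither count is shown to be particular to rps. Beside rps-14, a pair of rps genes shared a weaker summit with a ribosomal neighbour. That of rps-10 and rpl-24.1 had a pooled rank of 2203. That of rps-30 and rpl-39 had a pooled rank of 4811, at 250 and 249 bp from the 5′ ends.

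By chromosome, an IDR summit was found at 6 of 9 rps genes on chromosome III, 4 of 8 on chromosome I and 4 of 10 on chromosome IV. The 1 rps gene on chromosome II and the 3 on chromosome V had none, and no rps gene is on X. Over all protein-coding genes the share was 4.09% on III, 3.06% on I, 2.38% on IV, 1.86% on II and 1.84% on V, so III was highest in both.

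The words around the summits were compared next, within 50 bp of each summit and on both strands. Among 1114 distinct words of 7 bases in the 14 rps windows, the most frequent was CAGCCAA, with TTGGCTG as its reverse complement, in 7 of 14. It was chosen after its count was seen. It was near 2.13% of 376 other promoter summits of the IDR list and 1.14% of 7618 other pooled promoter summits. The 7 genes were rps-0, rps-14, rps-15, rps-19, rps-20, rps-21 and rps-22, and rps-20 and rps-22 each had it at 2 places. None of the 16 weaker rps summits had it. Of 10 IDR summits at large subunit genes that no rps gene shares, 1 had it, at rpl-23.

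In whole promoter windows the word was less unusual. It stood in 11 of 31 rps windows (35.5%), 10 of 47 rpl windows (21.3%) and 12.4% of all nuclear protein-coding windows. The 7 rps genes whose summits led to its choice are among the 11 by construction, so the rps share is partly built in. The others were rps-3, rps-11, rps-24 and rps-30. The strongest rps peak, at rps-12, lacked it within 50 bp of the summit, and the next 4 by IDR rank, at rps-15, rps-19, rps-20 and rps-14, had it. The peaks at rps-28, rps-4 and rps-1 that follow lacked it. In the rps-14 region it is part of a longer word, TTGGCTGCGTA, present on both strands with 22 bases between the copies. The pair spans the 44 bases chrIII:7179814-7179857, printed on the minus strand with the copies in capitals.
rps-14 and rpl-36: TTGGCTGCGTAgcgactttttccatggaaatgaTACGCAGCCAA
On the chromosomes searched for longer words, it occurs 31 times. It stood in the windows of rps-3, rps-14 and rpl-36, and 0.0643% of 17095 protein-coding windows held it. The word was taken from the rps-14 region, and rps-14 and rpl-36 share the same copies. Of these genes, only rps-3 was thus not fixed by the choice of the word.

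The summit sequences of rps-0 and rps-22 were also compared with each other, because both hold CAGCCAA. Their longest common stretch, CTGAGTATTCAACGTT, has 16 bases and occurs 10 times in the chromosomes searched. Of 17095 protein-coding genes there, 10 had it in the promoter window (0.0585%). Of these 10 genes, 3 are rps genes (rps-0, rps-22 and rps-30) and 3 are rpl genes (rpl-7A, rpl-32 and rpl-39), with 1 copy between rps-30 and rpl-39. The stretch was taken from rps-0 and rps-22, so these genes are among the 10 by construction. The stretch is printed in capitals with 9 bases on each side, to set genes with an IDR summit beside genes without one. The rps-3 sequence carries T15C, counted from 1 at the 5′ end of the stretch.
rps-0, IDR summit, chrIII:4754310-4754343, minus strand: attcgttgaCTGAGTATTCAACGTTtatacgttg
rps-22, IDR summit, chrIII:1950423-1950456, plus strand: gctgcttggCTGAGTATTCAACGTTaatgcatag
rps-30 and rpl-39, no IDR summit, chrV:7776336-7776369, plus strand: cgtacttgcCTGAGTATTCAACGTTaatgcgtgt
rps-3, no IDR summit, chrIII:6206471-6206504, plus strand: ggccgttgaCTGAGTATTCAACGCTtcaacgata
rpl-7A, no IDR summit, chrIV:4390621-4390654, plus strand: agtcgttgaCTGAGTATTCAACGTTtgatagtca
rpl-32, no IDR summit, chrII:9057430-9057463, plus strand: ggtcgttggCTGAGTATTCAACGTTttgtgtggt

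The stretch was defined from rps-0 and rps-22, which have an IDR summit, so their summits say nothing about it. The third rps gene that holds it, rps-30, had no IDR summit. None of the 3 rpl genes had one, and the other 4 genes that hold it were not examined. At rps-0, rps-22 and rps-30 it stood on the strand of the gene, 276, 95 and 225 bp upstream of the 5′ end. At rpl-39, rpl-7A and rpl-32 it stood on the opposite strand, 274, 48 and 362 bp upstream.

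Other motifs had counts of 0 or 1 at the 14 rps IDR summits. The site type of GATA zinc fingers, searched as TGATAA and with A as its first base, G as its last base or both, was near none of the 14 IDR summits. It was near 15.7% of the other IDR promoter summits and 23.5% of the other pooled ones. The repeat GAGAGAG was near 0 of 14, against 12.2% of the other IDR promoter summits, and the word CTGCGTCTC near 0 of 14, against 9.57%. The E-box CACGTG was near 0 of 14, against 4.52%. None of these motifs was near any of the 10 rpl IDR summits that no rps gene shares, so their absence is not particular to rps. With 14 summits, a count of 0 says only that these letters are not in these windows. TTTTTTTT was near 0, TTTCAG near 1 and GCGCGC near 1 of the 14, against 4.26%, 4.52% and 7.71%. At the 16 weaker rps summits, a GATA-type site was near 3 (18.8%) and CACGTG near 2 (12.5%), against 23.5% and 2.49% of the other pooled promoter summits. The median GC content was 48.5% at the 14 rps IDR summits and 45.0% at the 16 weaker rps summits. It was 48.5% at the other IDR promoter summits and 38.6% at the other pooled promoter summits.

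The large subunit genes are the closest comparison. Of 47 rpl genes 11 had an IDR summit (23.4%), against 14 of 31 rps genes (45.2%). No test was made of this difference, and it did not hold in every library: top peaks were at 41.9%, 16.1%, 22.6% and 25.8% of the rps genes in replicates 1 to 4 and at 21.3%, 19.1%, 19.1% and 10.6% of the rpl genes. Replicate 2 had the larger share for rpl. The strongest rpl peaks outranked every rps peak, with IDR ranks of 9 at rpl-3, 24 at rpl-15, 28 at rpl-35 and 42 at rpl-20. Of rpl genes 3 had a top peak in all 4 replicates, and of rps genes 1. The rpl summits lay at a median of 346 bp upstream, with a range of 22 to 438 bp.

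**Figure D4:**
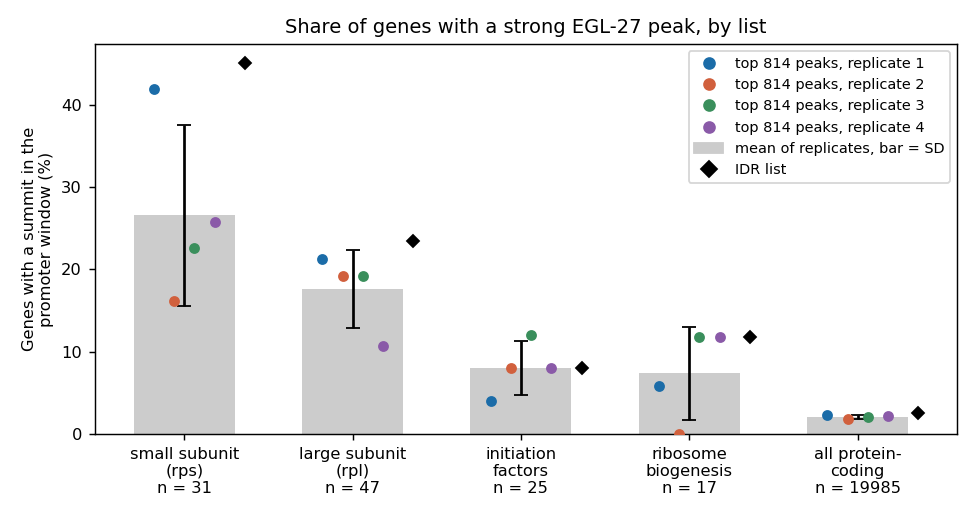
Percentage of genes with a peak summit in the promoter window, for the rps genes and other gene lists of translation. Points are the 814 strongest peaks of each replicate, grey bars their mean with SD over 4 replicates, and diamonds the IDR list. The rps share runs from 16.1% to 41.9% over the replicates and is 45.2% in the IDR list, against 2.60% of all protein-coding genes.

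Genes that work with the small subunit were counted in the same way, with no test of a difference from the rps genes. Of 3 partners, ubl-1, which encodes ubiquitin fused to a small subunit protein, had an IDR summit of rank 747, 172 bp upstream, and no top peak in any replicate. The scaffold gene rack-1 had a pooled rank of 6781, and the S6 kinase gene rsks-1 had no pooled summit. Of 25 translation initiation factor genes 2 had an IDR summit, where the share of all protein-coding genes was 2.60%. They were eif-3.C at rank 309 and iff-2 at rank 20. The iff-2 gene is of the eIF-5A family, which can also be grouped with the elongation factors. It had a top peak in all 4 replicates. Of 17 ribosome biogenesis genes 2 had an IDR summit (11.8%), tsr-2 at rank 412 and fib-1 at rank 732. The mean number of genes with a top peak was 2.00 ± 0.816 of the 25 initiation factor genes and 1.25 ± 0.957 of the 17 biogenesis genes (SD, n = 4). The latter is a share of 7.35%, and the mean over all protein-coding genes was 2.08%. A pooled summit, which can be background, lay at 15 of the 17 biogenesis genes (88.2%), against 37.5% of all protein-coding genes. With no ChIP for a different factor among these data, peaks common to many factors and peaks particular to EGL-27 cannot be told apart.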

How the data were processed

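ChIP-seq peak lists of 4 replicates of tagged EGL-27 were used on build ce11. Per the README texts among the deposited files, replicate and pooled alignments each gave a list of peaks plus background against 1 control, from which the authors made the IDR list. No source used here names the aligner, the peak caller or the IDR cutoff. The deposited score of each peak has no stated scale, so it served only to rank peaks within a list. Read depth is unknown, so no counting error can be given. The ce10 lists were not used.

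Gene models came from Ensembl release 115 and sequence from RefSeq, both WBcel235. Summits were placed as the peak start plus the deposited offset. Replicates were cut to 814 peaks. There is 1 group, so no groups were compared by a test, and lists are described by counts beside all protein-coding genes. Sets of 4 replicate values were screened for a replicate far from the others with Dixon's ratio. The members and the gene lists were chosen with earlier results of these data known. The words of 11 and 16 bases were not searched on chromosome I. The regions of the subunit were assigned from textbook structures after the peaks were seen. All rps members with an IDR summit are named, the 9 strongest in most detail, as are up to 4 genes of each related list. Further rpl genes are named where they share a summit with an rps gene or hold a word described above. Of the related names, 6 had no annotated gene. Alternatives changed the window, the 5′ end, the peak cutoff and the replicates. The window functions were tested on simulated data. Python 3.11.15 was used.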

Additional observations from a re-analysis of the deposited data

Results flagged for a closer look

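In 21 sets of 4 replicate values, 7 had 1 replicate far from the other 3. The rate of about 1 set in 20 by chance holds for normally distributed values. Many of these sets are ranks, which are skewed, so no excess over chance can be read from the 7. Replicate 2 had a summit at 12 rps genes in its full list, against 25 or 26 in the others. Its list is also the shortest. Its ranks stood apart at rps-4 (5896) and rps-28 (3074). The rps-4 rank is of a summit 715 bp upstream, away from the IDR summit. Replicate 3 stood apart at rps-3 (rank 15557) and rps-19 (rank 16325). At rps-3 its summit lay 133 bp downstream of the 5′ end, where those of the other replicates lay upstream. The summit at rps-1 lay 17 bp closer to the gene than the IDR summit in replicate 1, an offset of -17 bp. At rps-14 the summit in replicate 4 lay 184 bp farther upstream than the IDR summit.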

How the results depend on the processing

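Over the settings tried, the count of rps genes with an IDR summit ran from 10 to 15, against 14 reported. The count with a pooled summit ran from 21 to 30, against 30. The median summit distance was 271.5 to 283 bp, against 278 bp. Giving each summit only to the nearest 5′ end lowered the first 2 counts to 10 and 21. The same setting lowered the mean number of rps genes with a top peak per replicate from 8.25 to 4.50. It lowered the number with one in every replicate from 1 to 0. With the full replicate lists these were 22.2 and 10, and with 1628 top peaks the second was 2. Leaving out 1 replicate gave means of 6.67 to 9.33 and 1 to 4 genes with a top peak in every remaining replicate. Read depth is unknown, which limits any comparison of list lengths. No paired analysis was possible because there is 1 group.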
